A study of Homo sapiens with 4 samples.

Results

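TXNIP, the thioredoxin-interacting protein, and its relatives among the alpha-arrestins were followed in MDA-MB-231 cells, an established human breast carcinoma line, with and without depletion of DROSHA. The set held 8 genes of the 15870 named genes on the array: TXNIP, ARRDC1, ARRDC2, ARRDC3, ARRDC4, MLXIP, MLXIPL and TXN. They were chosen by gene symbol from the array's annotation, taking the brightest probe set of a gene over the 4 arrays, and as each of the 8 had exactly 1 named probe set, signal decided nothing in that choice. The set was proposed with the difference of TXNIP in these arrays already known, so that difference is given as a description, without a test.

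Total RNA was measured on 4 Affymetrix arrays. A hairpin against DROSHA, the nuclear ribonuclease that opens microRNA maturation, had been introduced for 2 of the arrays (labelled shDROSHA), and the 2 controls are labelled shNC, although the design text calls them mock-transfected. All cells were grown in Leibovitz's medium with serum and antibiotics, a medium whose sugar is galactose in place of glucose. Which hairpin sequence, how many clones and whether the hairpin was stably integrated were not given in the sources used here, and nothing says how the replicates were kept apart beyond the label "biological", so the spread between them may be partly technical. Values are RMA signals on the log2 scale, 1 per probe set and array, so 1 unit is a 2-fold difference, and signals of different genes cannot be set against each other. The RNA came from whole cultures, so fewer expressing cells and less RNA per cell cannot be told apart.

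Alpha-arrestins are adaptors that bind membrane proteins through an arrestin fold and recruit ubiquitin ligases of the NEDD4 family through PPxY motifs, which sends the cargo to endosomes. TXNIP is the member that also forms a disulfide with thioredoxin (TXN) and inhibits it, and it lowers glucose uptake by removing glucose transporters from the surface. Its transcription follows sugar phosphates inside the cell through the paired factors MondoA (MLXIP) or ChREBP (MLXIPL) with their partner MLX, and ARRDC4 is the other alpha-arrestin best known to follow the same factors. TXNIP mRNA is also a described target of microRNAs, the products of the DROSHA pathway.

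The 2 promoters shown here belong to TXNIP and ARRDC4, the pair that shares MondoA as a known regulator and whose signals differed in opposite directions between the groups, that of ARRDC4 without passing the test. All 8 genes were found in the RefSeq promoter table (GRCh38.p14), with 11 annotated starts between them. Each stretch is the 250 bases before a start, 5′ to 3′ on the gene's own strand, at chr1:145996580-145996829 (minus strand, the first listed of 2 starts) and chr15:97960453-97960702 (plus strand, 1 start). Capitals mark every match to the 3 motifs searched on both strands. These were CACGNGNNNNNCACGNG (paired E-box half-sites, the arrangement of a carbohydrate response element), CACGTG (a full E-box) and CCAAT (the box bound by NF-Y, ATTGG on the other strand), none of which overlapped another here.
TXNIP: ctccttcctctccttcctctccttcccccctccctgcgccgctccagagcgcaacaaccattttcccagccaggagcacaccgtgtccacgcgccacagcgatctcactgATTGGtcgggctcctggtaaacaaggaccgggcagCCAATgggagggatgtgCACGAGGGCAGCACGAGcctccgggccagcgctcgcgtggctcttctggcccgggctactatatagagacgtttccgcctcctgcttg
ARRDC4: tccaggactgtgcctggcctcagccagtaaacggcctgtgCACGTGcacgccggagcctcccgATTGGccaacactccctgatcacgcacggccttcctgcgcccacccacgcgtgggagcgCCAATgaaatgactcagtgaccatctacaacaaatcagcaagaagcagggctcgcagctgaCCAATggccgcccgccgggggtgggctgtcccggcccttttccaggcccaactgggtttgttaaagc

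In the TXNIP promoter the paired half-sites read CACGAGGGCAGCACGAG and lay 88 to 72 bases before the start. That motif occurred in 16 of 35116 upstream windows of the same length in the table (0.0456%), and in 1 of the 11 windows of the 8 genes. A pair of CCAAT boxes stood upstream of it, at 140 to 136 bases on the opposite strand and at 105 to 101 bases on the same strand. The ARRDC4 window held no match to the paired motif, 1 full E-box at 210 to 205 bases and 3 CCAAT boxes. A full E-box was present in 6.34% of all windows and a CCAAT box in 32%, against 6 of the 11 windows here for the CCAAT box. A match describes letters only, and binding of any factor was not measured.

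**Figure D1:**
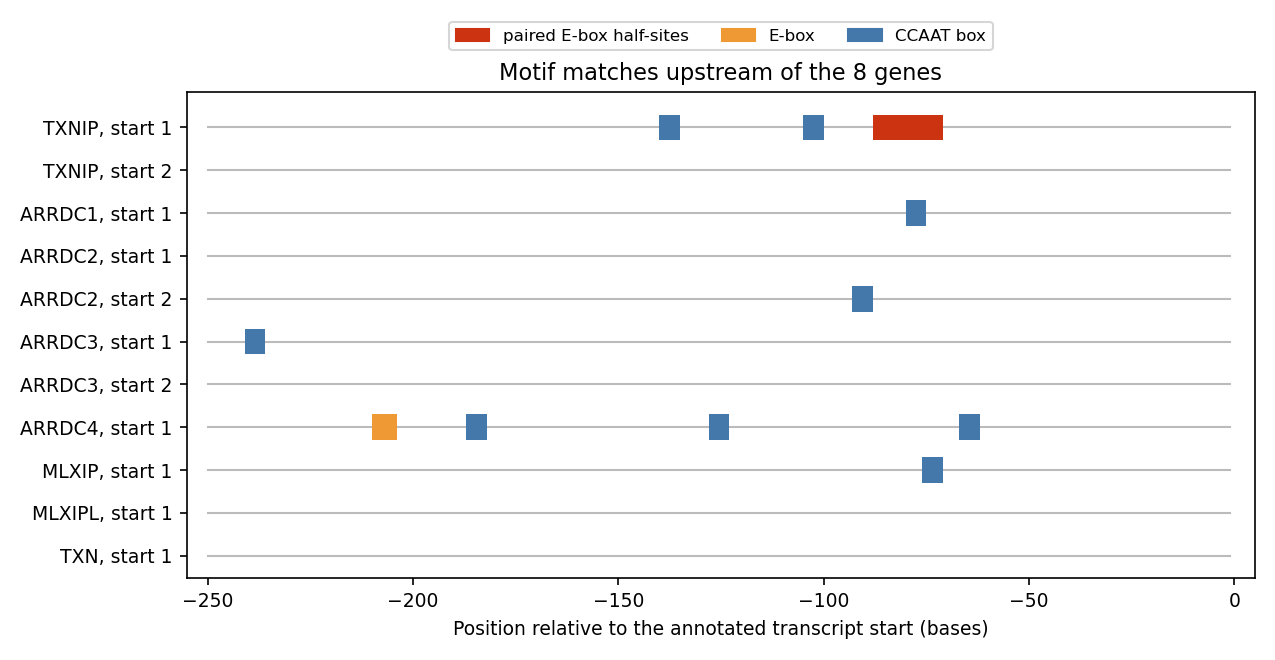
Positions of the motif matches in the 250 bases before each of the 11 annotated starts of the 8 genes (x axis in bases from the start, 1 line per start). The red block of paired half-sites is found at 1 start of TXNIP, 88 to 72 bases upstream, the full E-box in ARRDC4, and CCAAT boxes in 6 windows.

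TXNIP was 1.85-fold higher in the shDROSHA arrays. The knockdown arrays read 8.18 (replicate 1) and 8.04 (replicate 2), the control arrays 7.06 and 7.38. Both knockdown arrays stood above both controls, with a gap wider than the spread in either group, and the control arrays lay farther apart than the knockdown arrays. The group means were 8.11 ± 0.095 and 7.22 ± 0.23 (log2 mean ± SD, n = 2 each), a difference of 0.89 with an SE of 0.12. The difference exceeded that of 99.9% of all probe sets, and it ran from 0.73 without shNC replicate 1 to 1.05 without shNC replicate 2.

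TXN, the small redox protein that TXNIP binds, had nearly the same signal on every array. The shDROSHA arrays gave 12.45 and 12.50 and the shNC arrays 12.41 and 12.49, so the groups overlapped. The difference was 0.03 (SE 0.039, 95% interval -0.06 to 0.11, adjusted p = 0.794 in limma). This was the brightest probe set of the 8, above 99.5% of all probe sets, where differences between replicates were small.

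Neither of the sugar-sensing factors passed the test. MLXIP, which encodes MondoA, had signals of 6.36 and 6.38 after knockdown and of 6.13 and 6.31 in the controls. The groups were apart by less than the distance between the controls, with a difference of 0.15 (SE 0.15, 95% interval -0.17 to 0.48, adjusted p = 0.655 in limma). It ran from 0.07 without shNC replicate 1 to 0.24 without shNC replicate 2. MLXIPL, which encodes ChREBP and is best known from liver and fat, gave 6.40 and 6.54 against 6.59 and 6.35. Those groups overlapped fully, and the 95% interval of the difference ran from -0.32 to 0.32 (adjusted p = 0.999 in limma). Both probe sets were dimmer than the array's median of 7.22, and both intervals include a difference of 0.32 upward.

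Of the 4 other alpha-arrestins in the set, ARRDC3 rose. ARRDC3 is an adaptor for the beta2-adrenergic receptor and for integrin beta4, and has been described as a suppressor of breast cancer growth. It read 7.59 and 7.54 after knockdown, against 7.24 and 6.89 in the controls. Both knockdown arrays lay above both controls, and the controls again were the more scattered group. The difference was 0.50 (SE 0.13), or 1.41-fold, with an adjusted p of 0.0401 in limma. Without shNC replicate 2, the lower control, the difference was 0.33 and the call was lost (adjusted p = 0.306 in limma), whereas it held without any 1 of the other arrays.

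ARRDC4 had lower signals after knockdown, without passing the test. The knockdown arrays read 4.38 and 3.97 and the controls 4.56 and 4.78, so both knockdown arrays lay below both controls. The difference was -0.49 (SE 0.21, 95% interval -0.94 to -0.04 before adjustment), and it did not pass over all probe sets (adjusted p = 0.207 in limma). The probe set lay at percentile 3.64 of signal on the array, in the range where replicates scattered most and where an RMA signal can be background, and no detection calls were used. The difference ran from -0.70 to -0.29 when single arrays were left out.

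ARRDC1 and ARRDC2 did not pass the test. ARRDC1, which drives budding of vesicles from the plasma membrane, had signals of 8.57 and 8.35 against 8.62 and 8.63. The knockdown arrays were both lower, replicate 1 only slightly, and the difference was -0.16 (SE 0.094, 95% interval -0.36 to 0.04, adjusted p = 0.381 in limma). It ran from -0.28 without shDROSHA replicate 1 to -0.05 without shDROSHA replicate 2. ARRDC2 had signals of 7.19 and 7.26 against 6.94 and 7.24. The groups overlapped, the difference was 0.14 (SE 0.13, 95% interval -0.15 to 0.43, adjusted p = 0.653 in limma), and it became -0.01 without shNC replicate 1.

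**Figure D2:**
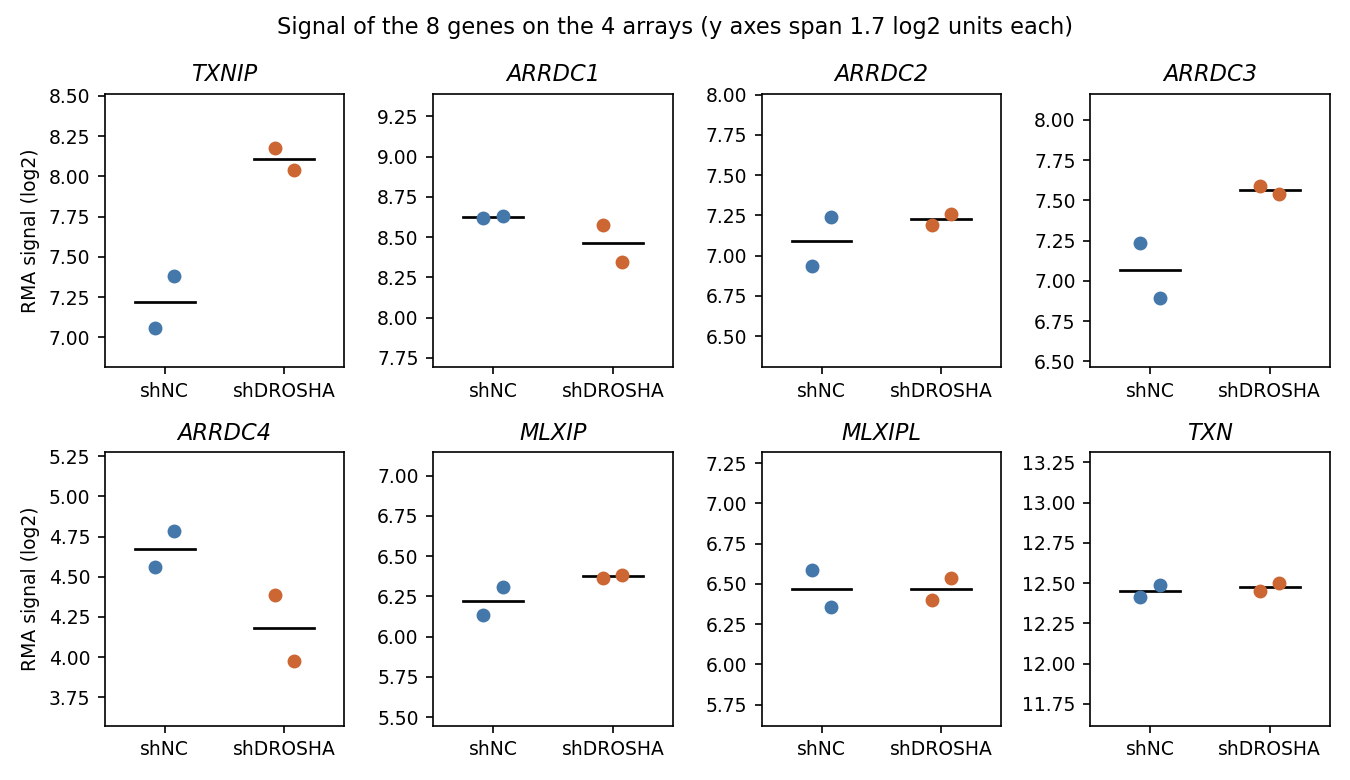
RMA signal (log2, y axis) of the 8 genes on each array. Points are single arrays, 2 per group, and lines are group means. TXNIP and ARRDC3 sit higher in both shDROSHA arrays, ARRDC4 and ARRDC1 lower, MLXIP slightly higher, and the groups overlap for ARRDC2, MLXIPL and TXN.

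Of the 7 genes other than TXNIP, 1 was called higher (ARRDC3) and 0 lower by limma with a prior variance that follows signal level (the trended fit, adjusted p under 0.05), and 2 had an unadjusted p under 0.05 (ARRDC3 and ARRDC4). The background was 6.41% of the 18603 probe sets called in either direction (3.12% of all probe sets higher and 3.28% lower). An unadjusted p under 0.05 in limma was reached by 3599 of the 18603 in the trended fit. As the set was proposed with results of this comparison known, nothing is read from the count. The 2 groups did not overlap for 5 of the 8 genes, TXNIP among them, against 47.8% of all probe sets. With 1 constant prior variance for all probe sets (the constant fit), 0 of the 7 passed and 2 had an unadjusted p under 0.05, and the adjusted p of ARRDC3 was 0.238 in limma. The constant fit called 1 probe set of the whole array (0.00538%), and 2774 had an unadjusted p under 0.05 in limma. The median difference was 0.08 over the 8 genes, TXNIP included, and 8.64e-04 over all probe sets.

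**Figure D3:**
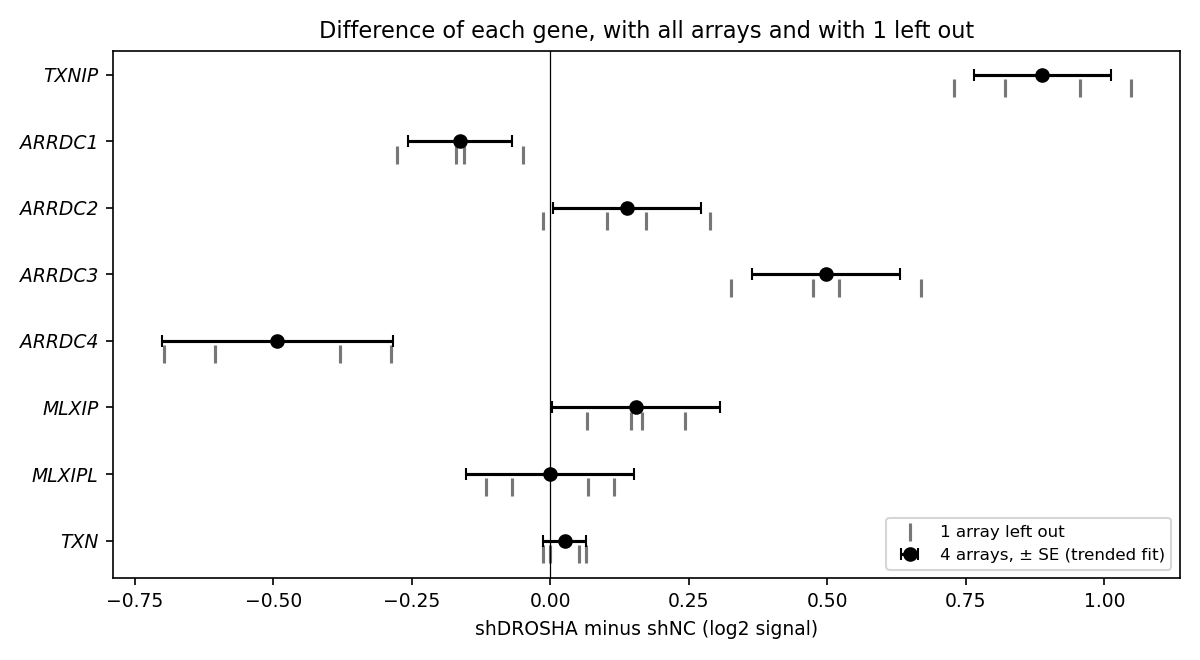
Difference between shDROSHA and shNC in log2 signal (x axis) for each gene. Black points are the values from 4 arrays with the SE of the trended fit, and grey ticks the values with 1 array left out. TXNIP (0.73 to 1.05) and ARRDC3 (0.33 to 0.67) stay above 0 and ARRDC4 (-0.70 to -0.29) below it, while ARRDC2, MLXIPL and TXN cross it.

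Facts of the arrays bear on these values. DROSHA signal, 8.71 and 8.74 after knockdown and 9.66 and 9.76 in the controls, was 1.98-fold lower, in the direction of the labels. It passed the trended fit (adjusted p = 3.9e-06 in limma) but not the constant fit (adjusted p = 0.0843 in limma). Array medians lay between 7.21 and 7.25. Of the 1192 probe sets called, 31 came from the dimmest of 5 equal bins, which holds ARRDC4, 175 from the middle bin, which holds TXNIP, ARRDC2 and ARRDC3, and 582 from the brightest, which holds TXN, so calls of dim and bright genes are not comparable. The 5 markers of this mesenchymal-like line (VIM, CD44, CAV1, AXL and MSN) had signals of 9.45 to 12.09, and of them AXL rose (0.33) while CAV1 (-0.23) and MSN (-0.22) fell, the MSN call being lost without shNC replicate 2 (adjusted p = 0.108 in limma). Of the luminal markers ESR1, GATA3, FOXA1 and EPCAM lay between 6.02 and 7.20, while KRT8 and KRT18 reached 11.61 and 11.13. The 5 measured blood and endothelial markers lay between 4.21 and 6.43. As signals of different genes cannot be set against each other, these ranges do not by themselves identify the cells. Of the 11 luminal, blood and endothelial markers, 0 passed the trended fit (2 at an unadjusted p under 0.05, KRT18 and KRT8). Without shDROSHA replicate 2 both were called, KRT8 at 0.18 (adjusted p = 0.0286 in limma) and KRT18 at 0.20 (adjusted p = 0.0269 in limma), and their part in the results above was not tested. With each array centred on its median KRT18 was called (0.19, adjusted p = 0.0445 in limma), and the calls over the array were 747 higher and 448 lower in place of 581 and 611.

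The wider network of factors around MondoA and ChREBP, in which MLX is their partner, gave no call. Of the 9 genes with a named probe set among 10 of the MYC, MAX and MLX network, 0 rose and 0 fell in the trended fit (2 at an unadjusted p under 0.05), with a median of 0.02. MLX, the obligate partner of MondoA and ChREBP, differed by 0.12 (SE 0.063, adjusted p = 0.312 in limma), with both knockdown arrays (9.99 and 9.93) above both controls (9.88 and 9.80). The repressors MXI1 and MXD3, which compete for the same E-boxes with MAX, differed by -0.22 each, and MGA, a large MAX partner, by -0.13, none passing. With single arrays left out MXI1 ran from -0.25 to -0.19, MXD3 from -0.33 (without shDROSHA replicate 2) to -0.12 (without shDROSHA replicate 1) and MGA from -0.18 to -0.08 (without shNC replicate 2).

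Among 16 measured (of 18 listed) MondoA and ChREBP targets other than TXNIP and ARRDC4, 4 rose, 0 fell and 12 did not pass. Of all probe sets 3.12% were called higher. The 4 lay in the brightest of the 5 bins, where 15.6% of probe sets were called in either direction. Of the 16, only the 4 called genes had an unadjusted p under 0.05 in limma, and the median was 0.09. ELOVL6, a fatty acid elongase, rose by 0.66 (SE 0.063). KLF10, a TGF-beta-inducible repressor and a ChREBP target, rose by 0.51 (SE 0.062), from 9.64 and 9.57 in the controls to 10.12 and 10.10. ACACA, which makes malonyl-CoA, rose by 0.31 and SCD, a fatty acid desaturase, by 0.28. The ELOVL6, ACACA and SCD genes are also known targets of SREBP factors. ACACA was not called without shNC replicate 1 (adjusted p = 0.177 in limma) or without shNC replicate 2 (adjusted p = 0.0543 in limma), and SCD was not called without either of them or without shDROSHA replicate 2 (adjusted p = 0.0596 to 0.158 in limma). The glycolytic members LDHA (-0.02), HK2 (-0.04) and PFKFB3 (-0.31) did not pass, and are named after their values were seen. With single arrays left out LDHA (-0.08 to 0.05) and HK2 (-0.13 to 0.05) took either sign, and PFKFB3 ran from -0.51 to -0.11.

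Of 17 measured genes (of 18 listed) of the thioredoxin and glutaredoxin system, 1 rose, 2 fell and 14 were not called, and the median was 0.03. The shares called over all probe sets were 3.12% higher and 3.28% lower. An unadjusted p under 0.05 in limma was reached by 9 of the 17, the called genes included. Over the whole array it was reached by 3599 of 18603 probe sets. GLRX, the cytosolic glutaredoxin that removes glutathione from proteins, fell from 11.37 and 11.27 in the controls to 10.79 and 10.84, a difference of -0.50 (SE 0.051). PRDX2, a cytosolic peroxiredoxin that thioredoxin recycles, fell by 0.44 on the log2 scale, from 10.22 and 10.23 to 9.78 and 9.79. GLRX2, a mainly mitochondrial glutaredoxin, rose by 0.33 (SE 0.083), a call lost without shDROSHA replicate 1 (adjusted p = 0.0633 in limma) or shNC replicate 1 (adjusted p = 0.253 in limma). MAP3K5, the ASK1 kinase that reduced thioredoxin holds inactive, differed by 0.38 (SE 0.11) just outside the threshold (adjusted p = 0.0527 in limma), and passed after centring on array medians (adjusted p = 0.0346 in limma) or quantile normalization again (adjusted p = 0.0336 in limma). The other genes with an unadjusted p under 0.05 in limma were NXN (0.24), TXNL1 (0.14), PRDX3 (0.13), GLRX5 (-0.13) and TXNRD2 (-0.30). They were named after their values were seen, and none passed. TXNRD1, the reductase of TXN, differed by 0.10 (0.002 to 0.19 with single arrays left out) and PRDX1 by 0.03 (0.005 to 0.063). Both were also named after their values were seen, and neither passed.

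The wider arrestin fold gave no call: of 7 measured genes (of 9 listed) 0 rose and 0 fell in the trended fit (0 also at an unadjusted p under 0.05), with a median of -0.03 that was 0.01 after centring on array medians. ARRB1, a beta-arrestin, differed by -0.10 (SE 0.071), RGP1, a subunit of a Golgi exchange factor, by -0.14 and ARR3, the cone arrestin, by -0.17. None of the 3 passed, and leaving out 1 array gave -0.18 to -0.01 for ARRB1, -0.20 to -0.07 for RGP1 and -0.33 to -0.02 for ARR3. ARRDC5, the remaining alpha-arrestin, read 4.34 and 4.33 against 3.86 and 4.17, a difference of 0.32 (SE 0.2, 0.17 to 0.48 with single arrays left out) that did not pass (adjusted p = 0.431 in limma). The ARRDC5 probe set lay at percentile 0.521 of signal and that of ARR3 at 5.62, where an RMA signal can be background.

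Among the ligases that alpha-arrestins recruit, 2 of 9 rose and 0 fell (2 at an unadjusted p under 0.05), and the median was 0.01. Over all probe sets 3.12% were called higher. NEDD4, the founding member and a ligase recruited by ARRDC3, rose from 8.32 and 8.48 in the controls to 8.94 and 8.87, a difference of 0.50 (SE 0.087, adjusted p = 0.00339 in limma). SMURF2, which marks TGF-beta receptors for degradation, rose by 0.30 (SE 0.057, adjusted p = 0.00588 in limma). WWP2 differed by -0.20 (-0.26 to -0.13 with single arrays left out) without passing. HECW1 read 6.09 and 5.97 in shDROSHA against 5.93 and 6.61 in shNC, so the groups overlapped. Its difference of -0.24 did not pass, and turned to 0.10 when shNC replicate 2 was left out and to -0.58 when shNC replicate 1 was. ITCH, the ligase best known to degrade TXNIP itself, differed by 0.01 with signals of 9.60 and 9.61 against 9.59 and 9.60, and is named after its values were seen.

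Cargo and partners of the alpha-arrestins were lower where they were called. Of 13 measured (of 15 listed), 0 rose and 3 fell (5 at an unadjusted p under 0.05), and the median was -0.14. Over all probe sets 3.28% were called lower. DDIT4 (REDD1), an inhibitor of mTORC1 that forms a complex with TXNIP, gave 7.42 and 7.61 against 8.13 and 8.31, a fall of 0.71 (SE 0.11, adjusted p = 0.00186 in limma). ITGB4, the integrin chain that ARRDC3 removes from the surface, fell by 0.66 (SE 0.11, adjusted p = 0.00322 in limma). SLC2A1, the GLUT1 glucose transporter that TXNIP sends into the cell, was at 9.89 and 9.77 against 10.06 and 10.09, a difference of -0.24 (SE 0.063, adjusted p = 0.0363 in limma). The SLC2A1 call was lost after centring on array medians (adjusted p = 0.0764 in limma) and without shDROSHA replicate 2, shNC replicate 1 or shNC replicate 2 (adjusted p = 0.13 to 0.16 in limma). STAM2, an endosomal sorting protein, differed by -0.24 (adjusted p = 0.058 in limma), and was called without shDROSHA replicate 2 (-0.27, adjusted p = 0.0411 in limma).

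Glucocorticoids and FOXO factors induce TXNIP in other settings, and 14 further genes known as their targets were listed. Of the 12 measured (FKBP5 and PER1 had no named probe set), 0 rose, 4 fell and 8 were not called. The share of all probe sets called lower was 3.28%. Only the 4 called genes had an unadjusted p under 0.05 in limma. Lower means were found for 11 of the 12, whereas 9343 of all 18603 probe sets had higher means, and the median was -0.13. Whether glucocorticoid or FOXO activity differed was not tested. SESN3, a stress-induced FOXO target, fell from 5.63 and 6.25 in the controls to 4.98 and 4.95, a difference of -0.97 (SE 0.21). YPEL3, a growth suppressor, fell by 0.67, CCNG2, a cyclin of quiescent cells, by 0.51 and BCL6, a transcriptional repressor, by 0.48 (all on the log2 scale). Calls were lost for SESN3 without shNC replicate 2 (adjusted p = 0.129 in limma), for CCNG2 and YPEL3 without shNC replicate 1 (adjusted p = 0.0503 and 0.0524 in limma), and for BCL6 without shDROSHA replicate 2 (-0.26, adjusted p = 0.172 in limma) or shNC replicate 1 (-0.37, adjusted p = 0.261 in limma). After centring on array medians or quantile normalization again BCL6 was not called (adjusted p = 0.0566 and 0.0541 in limma) and the count was 3. The glucocorticoid-induced genes TSC22D3 (-0.14, and -0.27 to -0.02 with single arrays left out) and KLF9 (-0.11, and -0.21 to -0.003), named after their values were seen, did not pass. ZBTB16, the 1 gene of the list with a higher mean and also named after its values were seen, differed by 0.19 without passing (adjusted p = 0.606 in limma).

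**Figure D4:**
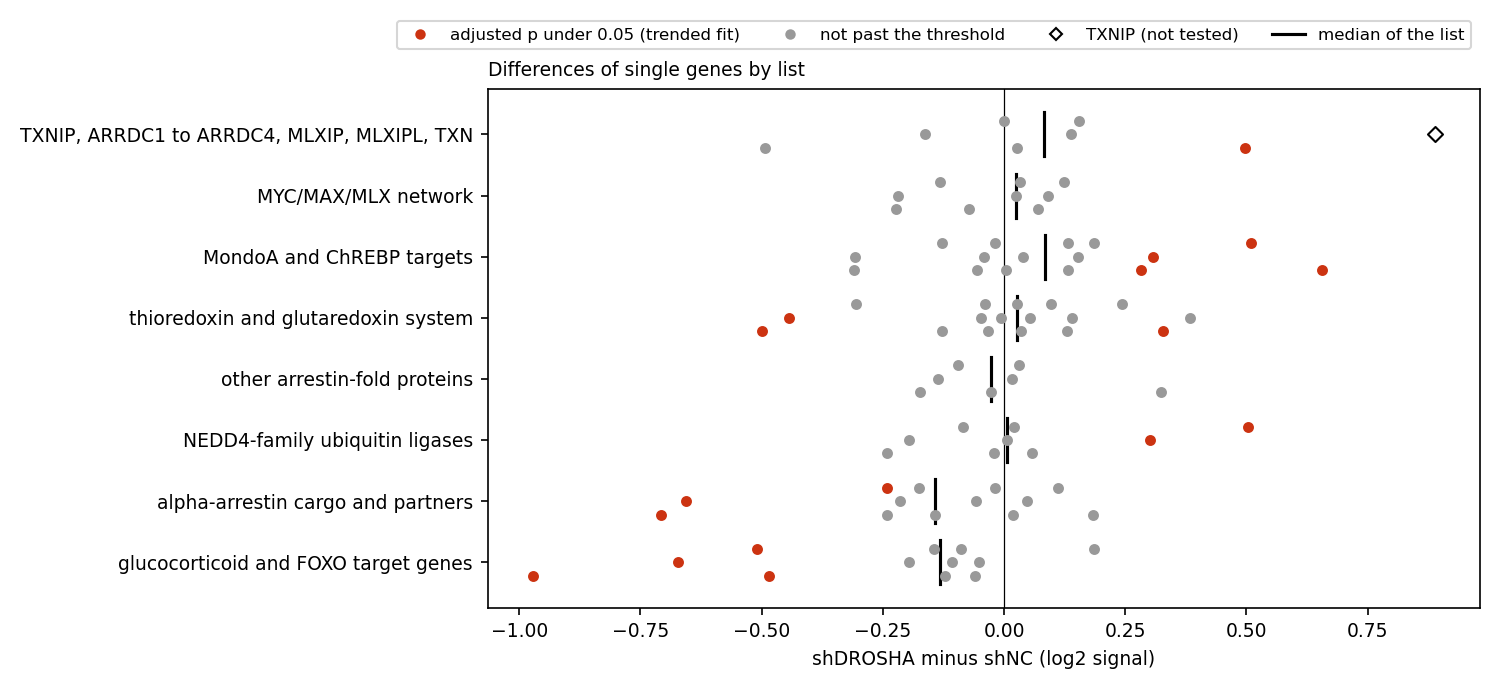
Difference between shDROSHA and shNC in log2 signal (x axis) for the measured genes of each list (1 point per gene, red where the trended fit gave an adjusted p under 0.05, TXNIP as an open diamond because it was not tested) with the median of the list as a black bar. Called genes were higher among MondoA and ChREBP targets (4 of 16) and NEDD4-family ligases (2 of 9). They were lower among cargo and partners (3 of 13) and glucocorticoid and FOXO targets (4 of 12). Both directions occurred in the thioredoxin and glutaredoxin system (1 higher and 2 lower of 17). Over all probe sets 3.12% were called higher and 3.28% lower, with more calls at high signal.

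None of the list genes named above passed the constant fit over all probe sets, where adjusted p-values of those called in the trended fit ran upward from 0.142 (ITGB4, limma). The counts of the lists depend on signal level and on the background over all 18603 probe sets, and they do not rank the lists. That background was 6.41% called and 3599 probe sets with an unadjusted p under 0.05 in limma.

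The genes whose pattern over the 4 arrays lay closest to that of TXNIP were ATP8B1, AOX1, IDI1, THBS1 and EREG. Closeness was the Euclidean distance between deviations from each gene's own mean, over 8253 named genes of at least median signal. ATP8B1, a phospholipid flippase, was nearest (distance 0.18 log2 units), with 8.25 and 8.12 in shDROSHA and 7.25 and 7.67 in shNC, the same order of arrays as TXNIP. AOX1, an aldehyde oxidase, followed at 0.19 with 7.84 and 7.69 against 6.93 and 7.18. IDI1, an isomerase of the sterol pathway, lay at 0.21, THBS1, a matrix glycoprotein, at 0.21 and EREG, an EGF receptor ligand, at 0.25. The differences of the 5 ran from 0.71 to 0.84, all below that of TXNIP. As the 5 were picked for closeness on these same 4 arrays, their differences and array order largely follow from that choice.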

How the data were processed

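The 4 arrays (2 shDROSHA, 2 shNC) were grouped by sample title. The deposited values are log2 signals, which the authors made with RMA per the submitters' processing notes. RMA subtracts background, makes array distributions alike by quantiles and summarises the probes of a set, which hides any shift common to most transcripts. Version, build and filters were not given in the sources used here. Of 18603 probe sets, 15886 had 1 symbol, updated by Entrez identifier to RefSeq (GRCh38.p14), 0 had several and 2717 none.

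Groups were compared with limma 3.58.1 in R 4.3.3 (lmFit, eBayes with an intensity trend, Benjamini-Hochberg over all probe sets, threshold 0.05). Every adjusted p comes from limma. The members, lists, trend and alternatives were chosen with earlier results of these data known. Named were the 8 genes, DROSHA, up to 4 genes per list with the smallest p, the 5 genes closest to TXNIP, and others marked as chosen after their values were seen. A gene with several probe sets counted by its brightest. With 2 arrays against 2, the smallest two-sided p of an exact permutation test is 0.333, and calls rest on spread pooled across probe sets (2 residual and 11.9 prior degrees of freedom). The number of arrays limits the precision. The fits were tested on simulated arrays whose spread followed signal level. The trended fit recovered 50% of changes of 0.5 log2 and 98% of changes of 1 log2, with 5 false calls among 153. The constant fit recovered 1% and 70%, with 0 false calls among 71. That simulated spread is the one the trended fit assumes, so it does not rank the fits. Promoter motifs were searched with Python 3.11.15.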

Additional observations from a re-analysis of the deposited data

How the results depend on the processing

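Over all probe sets, the count of 1192 calls became 1 with the constant prior variance (2774 at an unadjusted p under 0.05 in limma), 0 with that prior and the replicate block together (2490 at an unadjusted p under 0.05 in limma), 1824 at adjusted p 0.10, and 535 (without shNC replicate 1) to 1949 (without shDROSHA replicate 1) with 1 array left out. It was 748 without shNC replicate 2. There the remaining array of a group takes the spread of the other group. Of the 7 genes other than TXNIP, 1 was called (ARRDC3), and 0 with the constant prior, with or without the block. The ARRDC3 call was also lost without shNC replicate 2, where its difference was 0.33. The spread within groups was wider at low signal (residual SD 0.213 in the bin that holds ARRDC4) than at high signal (0.0672 in the bin that holds TXN), which a constant prior does not follow. With the replicate number as a block the count over all probe sets was 1391, and ARRDC3 was still called (adjusted p = 0.026 in limma). Same-numbered arrays did not deviate together (correlation -0.022), so the numbers were not taken as pairs.

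The TXNIP difference lay between 0.73 and 1.05 under the 14 alternatives run, and no test is drawn from it. ARRDC4 stayed lower, and not called, under the 12 alternatives that kept it, as the filters on dim probe sets removed it. Signs turned for genes near 0: with single arrays left out ARRDC2 ran from -0.012 to 0.289, TXN from -0.013 to 0.065 and MLXIPL from -0.117 to 0.115, ARRDC2 and TXN being below 0 without shNC replicate 1 and MLXIPL above 0 without shDROSHA replicate 1 (0.067) or shNC replicate 1. MLXIPL was 0.032 with arrays centred and 0.018 with quantile normalization again. The causes were not tested. No member had a further probe set, so that alternative was not run. The constant prior together with the block was added after seeing the data.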
